A study of Mus musculus with 18 samples.

Results

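Testes of 15-day-old males carrying the t12 chromosome 17 were compared with testes of males carrying the Ttf chromosome 17, each opposite the same translocation. The 6 carrier arrays were chosen by their titles, out of 18 arrays in the series, and all 9067 genes with a log2 value of at least 4 on at least 2 of the 6 were tested. The groups were C57BL/10J-t12+/+T43 (n = 3), C57BL/10J-Ttf+/+T43H (n = 3) and, beside them, C57BL/6J (n = 2), all 15 days old, with RNA from whole testes freed of their outer coat. Both carrier groups therefore share T43H, a reciprocal translocation between chromosomes 16 and 17, and the C57BL/10J background, which the C57BL/6J males do not have. The arrays of sorted spermatocytes used further down came from males aged 2 months: pre-mid-pachytene cells of t12+/+T43 (n = 3), Ttf+/+T43H (n = 3) and C57BL/10J (n = 2), and mid-late-pachytene cells of C57BL/10J (n = 2). The study's title places the comparison in a question about how a longer stretch of unsynapsed autosomal chromatin acts in meiosis. The design text calls the replicates biological, and nothing says whether arrays came from single animals.

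As background, a t haplotype is a variant form of the proximal part of chromosome 17 that differs from the ordinary chromosome by inversions and by many sequence variants, and that is passed on as a block. In meiotic prophase of male mice, the X and Y are transcriptionally silenced at pachytene, and chromosome stretches that stay unsynapsed can be silenced in the same way. The first wave of spermatogenesis reaches pachytene around the age sampled here, so a whole testis of this age holds somatic cells, spermatogonia and spermatocytes but few later cells.

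Values are log2 GCRMA levels, and a difference is the mean of t12 arrays minus the mean of Ttf arrays, with limma's moderated standard error (SE). A gene was called when limma's adjusted p, with Benjamini-Hochberg adjustment across the 9067 genes, was under 0.05. Array pairs within a carrier group correlated at 0.9913 to 0.9973 across genes, and pairs between the groups at 0.9746 to 0.9942. Array medians were 5.65 to 5.671 in t12 and 5.673 to 5.692 in Ttf, so each t12 median lay slightly below each Ttf median. For the Gapdh control probes, the 3' minus 5' signal ran from -0.06 to 0.06 in t12. In Ttf that signal ran from -0.07 to 0.14, so here the groups overlapped. The germ cell content fitted the label. On the carrier arrays Sycp3, a protein of meiotic chromosome axes, read 14.83 to 15.01, and Dmc1, the meiotic recombinase, read 10.29 to 10.54. Of 25 spermatid genes, 21 stayed untested at 1.90 to 2.97 on those arrays.

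Of the 9067 genes, 460 were called (5.07%). Of these, 100 were higher (1.1%) and 360 were lower (3.97%) in t12 testes, and 2350 had an unadjusted p under 0.05. The t12 and Ttf arrays did not overlap for any of the 460, against 30.8% of all genes tested. The rises were small, with a median of 0.32, and 7 reached 2-fold. The falls had a median of -0.65, and 104 reached 2-fold. The median over all genes tested was 0.02. Lower calls made up 78.3% of the total on the deposited values, 68.7% after quantile normalization and 63.0% after centring each array on its median.

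The number of calls depended on single arrays. The total was 22 without Ttf replicate 1, 13 without Ttf replicate 2, 10 without t12 replicate 2, 17 without t12 replicate 3, and 36 without either C57BL/6J array or without both. It was 909 without Ttf replicate 3 and 337 without t12 replicate 1. Leaving out either C57BL/6J array gave the same result, since a single remaining array adds nothing to the spread. The 9 genes called in all 8 of these leave-one-out fits were Psmb9, Tap1, Tap2, Znrd1, 1700010I14Rik, Pabpc6, Rsph1, Dhx16 and Mblac1. Of these, 8 lie on proximal chromosome 17 and Mblac1, which encodes a metallo-beta-lactamase domain protein, lies on chromosome 5. Dhx16 and Mblac1 fall outside the naming rule and were singled out after their values were seen.

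The genes that held included a block of antigen presentation genes in the major histocompatibility complex (MHC) of chromosome 17. Psmb9 encodes a subunit of the immunoproteasome, which cuts proteins into peptides for MHC class I, and Tap1 and Tap2 encode the transporter that carries those peptides into the endoplasmic reticulum. The start sites of Psmb9 and Tap1 lie back to back: their RefSeq promoter windows on GRCm38.p6 share 275 bases. The window of Tap1, chr17:34187306-34187605 on the plus strand, is shown because both genes were higher in t12, and its capitals mark the stretch shared with the Psmb9 window, chr17:34187281-34187580 on the minus strand.
Tap1: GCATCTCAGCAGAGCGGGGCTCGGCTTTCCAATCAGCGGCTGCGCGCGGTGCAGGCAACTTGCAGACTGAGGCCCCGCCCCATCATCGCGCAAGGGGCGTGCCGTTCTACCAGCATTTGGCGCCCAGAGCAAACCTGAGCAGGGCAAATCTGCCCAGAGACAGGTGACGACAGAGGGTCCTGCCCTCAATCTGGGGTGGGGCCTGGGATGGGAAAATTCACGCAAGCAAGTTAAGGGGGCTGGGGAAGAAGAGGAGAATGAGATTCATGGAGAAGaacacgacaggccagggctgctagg
Neither window holds GAAA followed by any 2 bases and GAAA, an interferon response type motif present in 3.44% of 32851 RefSeq promoter windows, or TTCNNNGAA, a STAT type motif present in 8.3%, on either strand. The motif search was chosen after the values were seen.

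Psmb9 read 7.29, 7.47 and 7.85 on the t12 arrays, 3.82, 3.77 and 4.58 on the Ttf arrays, and 3.81 and 3.78 on the C57BL/6J arrays. The t12 and Ttf ranges were far apart, and the C57BL/6J testes sat with Ttf. The difference was 3.48 (SE 0.23), with a limma adjusted p of 0.00168. Since 2 of the 3 Ttf arrays lay below log2 4, where signal is close to the array's low end, its exact size is uncertain. Psmb9 therefore met the filter only with its t12 arrays.

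Tap1 read 4.58, 4.93 and 4.88 in t12, 2.21, 2.43 and 2.78 in Ttf, and 2.47 on each C57BL/6J array. The difference was 2.32 (SE 0.15; limma adjusted p 0.00168). Tap2 read 4.53, 4.63 and 4.30 in t12 against 2.60, 2.58 and 2.59 in Ttf, and 2.40 and 2.29 in C57BL/6J, a difference of 1.89 (SE 0.08; limma adjusted p 0.000517). No Ttf array reached log2 4 for Tap1 or Tap2, so each entered the test through the t12 arrays alone.

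The rise did not extend evenly along this block. Psmb8, a further immunoproteasome subunit, lies between Tap1 and Tap2 in gene order but stayed below the filter, at 3.42, 3.49 and 3.69 in t12 and 3.16, 3.30 and 3.40 in Ttf. H2-K1, a classical class I heavy chain, read 11.09, 11.08 and 11.14 in t12, 10.37, 10.12 and 10.40 in Ttf, and 10.97 and 10.79 in C57BL/6J, a difference of 0.81 (SE 0.09; limma adjusted p 0.0159). Here C57BL/6J sat nearer t12 than Ttf. The H2-K1 call was lost without t12 replicate 2 or t12 replicate 3. H2-Bl, a nonclassical class I gene, read 5.74, 5.71 and 4.80 in t12 and 2.98, 2.81 and 2.93 in Ttf, with no Ttf array at log2 4, and its call was lost without Ttf replicate 2 or t12 replicate 2. H2 genes are close copies of each other, so which of them gave the signal is uncertain.

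Other genes of the pathway did not pass. Of the 7 members of an MHC and antigen presentation list that passed the filter, 4 were called higher and 0 lower, against 1.1% higher over all genes tested. Tap1 and Tap2 passed through t12 alone, and with a filter on both groups 2 members were called and the list median fell from 0.81 to 0.21, so the count is no support for a shift of the list. H2-D1, a further classical heavy chain, differed by -0.25 (SE 0.09; limma adjusted p 0.131). Tapbp, which tethers the transporter to class I, differed by -0.21 (SE 0.06; limma adjusted p 0.0862), and B2m, the class I light chain, by 0.21 (SE 0.13; limma adjusted p 0.337).

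**Figure D1:**
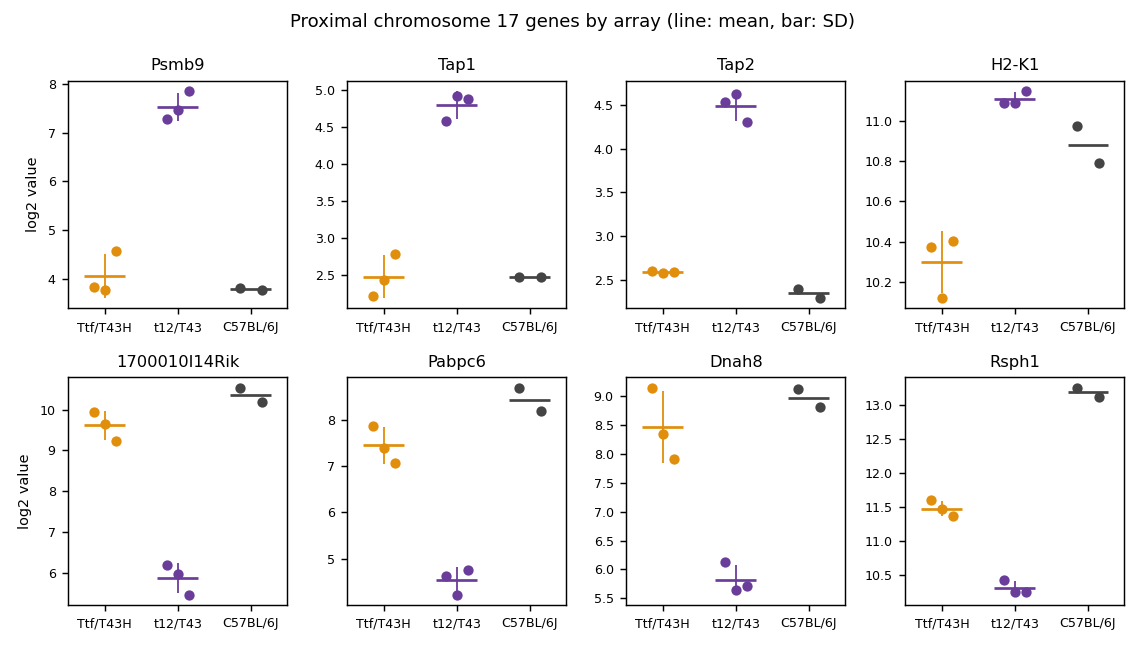
Log2 level of 8 proximal chromosome 17 genes (vertical axes, each panel with its own range) in testes of Ttf/T43H and t12/T43 carriers (n = 3 each) and of C57BL/6J males (n = 2), with points for arrays, lines for means and bars for the SD where n = 3. In each panel the t12 points lie apart from the Ttf points, above them in the upper row and below them in the lower row.

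The largest fall also came from proximal chromosome 17. 1700010I14Rik, a gene known by its clone name, read 6.19, 5.97 and 5.48 in t12, 9.95, 9.65 and 9.24 in Ttf, and 10.53 and 10.19 in C57BL/6J. The difference was -3.73 (SE 0.23), a 13.3-fold lower level, with a limma adjusted p of 0.00168. Its neighbour Pabpc6, of the poly(A)-binding protein family, read 4.64, 4.23 and 4.77 in t12 and 7.87, 7.39 and 7.07 in Ttf, a difference of -2.90 (SE 0.24; limma adjusted p 0.00508). The next called gene along, Qk, the RNA-binding protein quaking, went the other way at 0.60 (SE 0.06), and its call was lost without Ttf replicate 1, Ttf replicate 2 or t12 replicate 2.

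Among axoneme genes of the region, Rsph1 and Dnah8 were lower. Rsph1, a radial spoke protein of cilia and sperm tails, read 10.43, 10.25 and 10.26 in t12, 11.60, 11.47 and 11.37 in Ttf, and 13.26 and 13.12 in C57BL/6J. The 3 groups were separate, with t12 lowest, and t12 minus Ttf was -1.17 (SE 0.08; limma adjusted p 0.00168). Dnah8, an axonemal dynein heavy chain, read 6.12, 5.64 and 5.71 in t12 against 9.14, 8.34 and 7.91 in Ttf, a difference of -2.64 (SE 0.30; limma adjusted p 0.0167). The Dnah8 call was lost without Ttf replicate 2, t12 replicate 2 or t12 replicate 3.

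Dhx16, an RNA helicase of the spliceosome, read 8.93, 8.90 and 8.83 in t12, 9.97, 9.82 and 9.79 in Ttf, and 10.40 and 10.27 in C57BL/6J. It was lower by -0.97 (SE 0.07; limma adjusted p 0.00168), and again the groups did not overlap. Tcp1, a subunit of the cytosolic chaperonin and a classical t complex gene, was lower by -0.40 (SE 0.07; limma adjusted p 0.0355). Its call was lost without Ttf replicate 1 or 2, t12 replicate 2 or 3, or either C57BL/6J array. Of 7 tested genes of a t complex list, 1 was higher (Qk) and 3 were lower (Dnah8, Rsph1 and Tcp1), against 14.1% called over all tested genes of proximal 17 and 5.07% over all genes. Sod2, mitochondrial superoxide dismutase, and Igf2r, the growth factor receptor of the same region, had overlapping arrays, and Igf2r differed by 0.04 (SE 0.10).

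Znrd1, a subunit of RNA polymerase I, rose beside a gene that fell. Its start lies head to head with that of the antisense gene Znrd1as, and a window of each shares 271 bases with the other. This Znrd1 window, chr17:36958379-36958678 on the minus strand of GRCm38.p6 in RefSeq, is shown with capitals on TGACGTCA, a cyclic AMP response element, which reads the same on both strands and is present in 1.79% of promoter windows.
Znrd1: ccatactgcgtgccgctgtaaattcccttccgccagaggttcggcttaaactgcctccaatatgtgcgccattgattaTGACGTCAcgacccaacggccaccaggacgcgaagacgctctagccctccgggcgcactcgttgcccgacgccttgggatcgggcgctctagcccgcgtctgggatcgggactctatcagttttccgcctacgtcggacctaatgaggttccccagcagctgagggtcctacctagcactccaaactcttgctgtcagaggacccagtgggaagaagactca
Znrd1 read 10.87, 10.89 and 10.93 in t12, 9.93, 10.09 and 9.99 in Ttf, and 10.33 and 10.25 in C57BL/6J, a difference of 0.89 (SE 0.05; limma adjusted p 0.00168). Znrd1as read 10.48, 10.35 and 10.06 in t12 and 9.62, 9.34 and 8.85 in Ttf, a difference of 1.03 (SE 0.20; limma adjusted p 0.0391). Ppp1r11, an inhibitor of protein phosphatase 1 and the called gene next to Znrd1, was lower by -1.45 (SE 0.19; limma adjusted p 0.0258). The Znrd1as call was held only without Ttf replicate 3, and the Ppp1r11 call only without Ttf replicate 3 or t12 replicate 1.

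Further rises on proximal 17 were Sox8, a transcription factor of Sertoli cells, at 0.84 (SE 0.08), Msrb1, a methionine sulfoxide reductase, at 1.07 (SE 0.12), and Ezr, the membrane linker ezrin, at 0.77 (SE 0.08). Sox8 read 10.05, 10.17 and 10.22 in t12, 9.22, 9.25 and 9.45 in Ttf, and 9.35 and 9.49 in C57BL/6J. For Sox8 the Ttf and C57BL/6J arrays overlapped and the t12 arrays stood above both. Its call was lost without Ttf replicate 2 or t12 replicate 2, and that of Msrb1 without those or t12 replicate 3. Ezr was named after its values were seen, and its call held in 4 of the 8 leave-one-out fits.

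Along chromosome 17, called genes of both directions lay among genes that were not called. The proximal part, up to the gene before Pgk2, held 270 tested genes, of which 17 were higher and 21 lower, so 14.1% were called. The share was 4.82% of 8004 genes on autosomes other than 16 and 17. The distal part held 176 tested genes with 0 higher and 7 lower, and chromosome 16, the translocation partner, held 287 with 3 higher and 7 lower.

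The proximal part as a whole shifted little. Its median difference was 0.01, and its level relative to autosomes other than 16 and 17 was -0.50 on each t12 array and -0.49 on each Ttf array, against -0.27 and -0.26 in C57BL/6J. The 38 called genes included 14 that lay next to another called gene, in 6 runs, and 3 of the 6 runs held both directions. One run paired Ldhal6b, a lactate dehydrogenase-like gene at -2.11 (SE 0.27), with Zdhhc14, a palmitoyltransferase at 0.84 (SE 0.09). Another held Tbp, the TATA-binding protein, at -0.58 (SE 0.07) and Pdcd2 at -0.43 (SE 0.06), both lower. Of the 8 leave-one-out fits, the call held in 2 for Ldhal6b, 4 for Zdhhc14, 5 for Tbp and 3 for Pdcd2. The only neighbours in these runs that both held in all 8 were 1700010I14Rik with Pabpc6 and Psmb9 with Tap1.

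The proximal count fell to 14 without Ttf replicate 1, 10 without Ttf replicate 2, 8 without t12 replicate 2, 12 without t12 replicate 3 and 19 without either C57BL/6J array. Probe sequences were not used here, so on this chromosome a sequence difference under a probe and a difference in transcript level cannot be told apart.

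**Figure D2:**
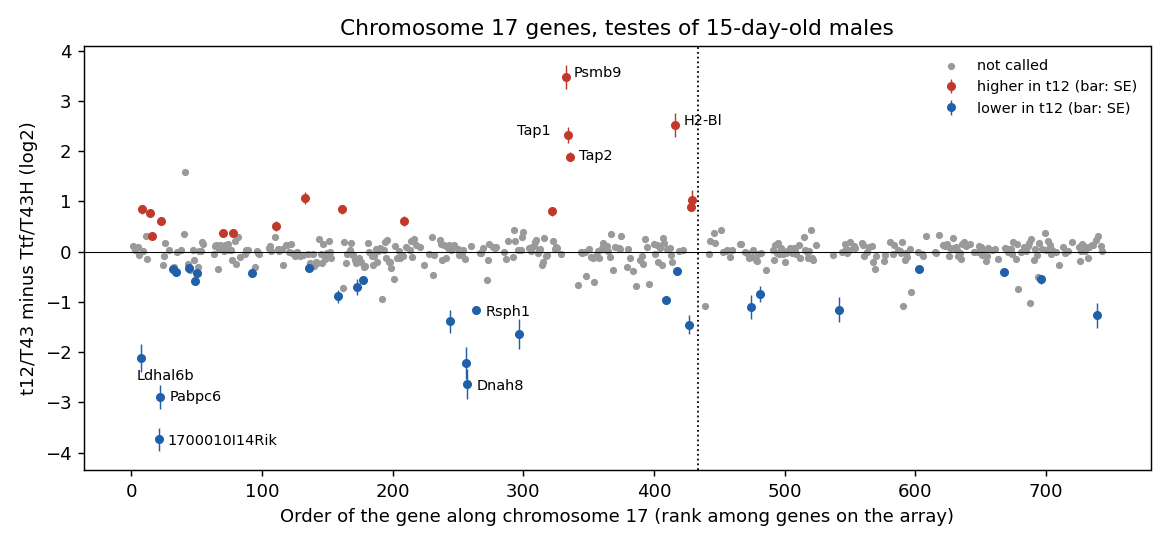
Difference between t12/T43 and Ttf/T43H testes (vertical axis, log2) for each tested gene against its rank along chromosome 17 among genes on the array, with red for called higher, blue for called lower, grey for not called and bars for the SE. The dotted line divides the proximal part, with 17 higher and 21 lower genes, from the distal part, with 0 higher and 7 lower.

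**Figure D3:**
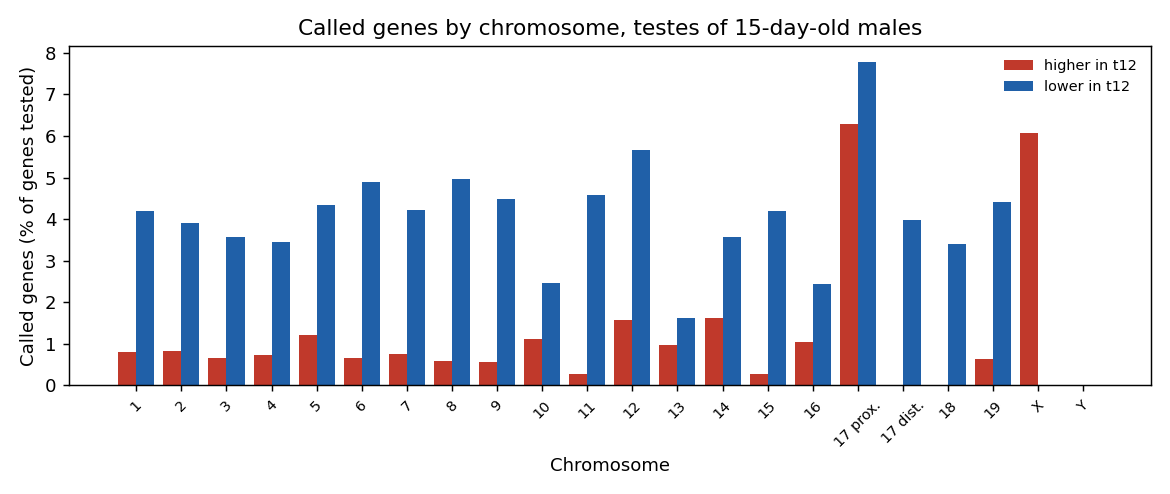
Percentage of tested genes called higher (red) and lower (blue) in t12/T43 testes on each chromosome, with chromosome 17 divided into its proximal and distal parts. Proximal 17 stands at 14.1% over both directions, and the X has rises without falls.

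Several genes listed for mid-late pachytene and the meiotic divisions were lower in t12 testes, and the 7 called ones lie outside chromosome 17. The list also holds Crisp2, a tested gene of chromosome 17 that was not called. Of 23 tested genes of mid-late pachytene and the meiotic divisions, 7 were lower (30.4%) and 0 higher. Over all genes tested 3.97% were lower and 1.1% higher. Of the 23, 20 differed by less than 0, with a median of -0.78. Of all 9067 genes, 3927 differed by less than 0, with a median of 0.02. The mean level of this list per array was 0.39, 0.18 and -0.24 in t12, 1.22, 0.98 and 0.68 in Ttf, and 1.14 and 0.99 in C57BL/6J. The carrier groups did not overlap, and C57BL/6J lay inside the Ttf range.

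Ldhc, the sperm lactate dehydrogenase, read 12.54, 12.19 and 11.63 in t12, 13.71, 13.34 and 13.15 in Ttf, and 13.62 and 13.37 in C57BL/6J. It differed by -1.28 (SE 0.24; limma adjusted p 0.0391). Spag6l, a protein of the axoneme's central apparatus, read 5.75, 5.60 and 4.59 in t12 and 7.67, 7.24 and 6.75 in Ttf, a difference of -1.91 (SE 0.34; limma adjusted p 0.0372). In both genes every t12 array lay below every Ttf array.

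The other called members were Spink2, an inhibitor of acrosin, at -1.87, Nme5, a nucleoside diphosphate kinase family protein of cilia, at -1.37, Ybx2, the germ cell mRNA-binding protein, at -1.07, Psma8, the testis proteasome subunit, at -0.78 and Clgn, the chaperone calmegin, at -0.69. Adam2, a sperm surface protein, differed by -1.63 (SE 0.37; limma adjusted p 0.0522) and Hspa2, the meiotic chaperone, by -0.50 (SE 0.12; limma adjusted p 0.0623), neither of which passed. The 7 calls became 0 without Ttf replicate 1 or 2, t12 replicate 2 or 3, or either C57BL/6J array. They became 16 without Ttf replicate 3 and 9 without t12 replicate 1, 1 with no filter on low values, 12 with an intensity trend and 18 with array weights. In whole testes, fewer cells of a type and less RNA per cell cannot be told apart.

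The piRNA pathway, which makes small RNAs against transposons and is loaded at pachytene, followed the same direction. All 19 tested members differed by less than 0, with a median of -0.28, against 3927 of all 9067 genes below 0. Of the 19, 3 were called lower (15.8%), against 3.97% over all genes tested. Tdrd5 was lower by -0.83 (SE 0.17; limma adjusted p 0.041), Tdrd9, an RNA helicase, by -0.54 (SE 0.09; limma adjusted p 0.034) and Gtsf1 by -0.42 (SE 0.07; limma adjusted p 0.0355). Piwil1, the pachytene Piwi protein, read 10.17 to 11.24 in t12 and 11.54 to 12.40 in Ttf, without overlap, but its limma adjusted p was 0.0645. The 3 calls were lost without Ttf replicate 1 or 2, t12 replicate 2 or 3, or either C57BL/6J array, and with no filter on low values, and became 7 without Ttf replicate 3, 5 with a log2 6 filter or an intensity trend and 14 with array weights.

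Among the largest falls by name were Hspb9, a small heat shock protein of testis, at -3.41 (SE 0.65), Adam32 at -2.73 (SE 0.46), Pbp2 at -2.43 (SE 0.43) and Fbp1, the gluconeogenic fructose bisphosphatase, at -2.16 (SE 0.38). Hspb9 read 3.95, 2.29 and 2.26 in t12, 7.44, 6.00 and 5.28 in Ttf, and 6.03 and 5.24 in C57BL/6J. The t12 arrays of Hspb9 and Pbp2 were all under log2 4, as were 2 of 3 for Adam32 and Zpbp2, so the exact size of these falls is uncertain, and Hspb9 and Pbp2 passed the filter through the Ttf arrays alone. Zpbp2, an acrosomal protein that binds the egg coat, was lower by -2.19 (SE 0.36), the only called member of the 4 tested spermatid genes (25%). Gk2, a testis glycerol kinase and autosomal retrocopy of an X gene, was lower by -1.58 (SE 0.33), the only call among 6 tested retrocopies (16.7%). Over all genes tested 3.97% were lower. All 4 spermatid genes and all 6 retrocopies differed by less than 0, against 3927 of all 9067 genes. The retrocopy list level per array ran from 0.09 to 0.62 in t12 and from 0.80 to 1.18 in Ttf, without overlap. None of these calls held without Ttf replicate 1 or 2, t12 replicate 2 or 3, or either C57BL/6J array.

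For earlier meiotic genes the medians lay nearer 0. Of 19 tested recombination genes, 3 were lower (15.8%) and 1 was higher (5.26%), with a median of -0.16. Over all genes 3.97% were lower and 1.1% higher. Cntd1, a cyclin-related crossover factor, was lower by -0.85 (SE 0.14), Psmc3ip, a cofactor of the recombinases, by -0.58 (SE 0.11) and Msh4, of the crossover complex, by -0.40 (SE 0.08), while Tex11, an X-linked crossover factor, was higher by 0.32 (SE 0.06). Of 15 synapsis and axis genes, only Syce1, of the synaptonemal complex's central element, was called, at -0.37 (SE 0.07), and the median was -0.06. Of 17 genes of DNA damage signalling and meiotic silencing, only H2ax, the histone variant phosphorylated on unsynapsed chromatin, was called, at -0.33 (SE 0.07). The 1 call among 15 (6.67%) and the 1 among 17 (5.88%) are near the 5.07% called over all genes. None of these calls held without Ttf replicate 1 or 2, t12 replicate 2 or 3, or either C57BL/6J array.

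By limma, 0 of 9 leptotene and zygotene genes were called, with 3 at an unadjusted p under 0.05, and their median was -0.01. Likewise 0 of 18 spermatogonial and preleptotene genes were called, with 7 at an unadjusted p under 0.05 and a median of 0.12. Of the 18, 3 were below 0. This list's level per array ran from 1.15 to 1.20 in t12 and from 1.06 to 1.10 in Ttf, without overlap. Kit, the receptor of differentiating spermatogonia, differed by 0.40 (SE 0.10; limma adjusted p 0.0677). Among p53 targets and apoptosis genes, limma called 0 of 14, with 3 at an unadjusted p under 0.05. Their median was 0.13 with 3 of 14 below 0, and the list level per array ran from -0.62 to -0.54 in t12 and from -0.75 to -0.65 in Ttf, without overlap. Among heat shock and stress genes limma called 0 of 14, with 2 at an unadjusted p under 0.05. Over all 9067 genes tested, 2350 had an unadjusted limma p under 0.05. The unadjusted counts of these lists are to be read against that background.

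The somatic markers gave no limma call. Of 15 Sertoli genes, 0 were called and 3 had an unadjusted p under 0.05. Their median was 0.12, 1 of the 15 was below 0, and the list level per array ran from 1.75 to 1.95 in t12 and from 1.60 to 1.79 in Ttf. Of 11 peritubular, stromal and endothelial genes 0 were called, with 2 at an unadjusted p under 0.05. Of 5 macrophage and blood genes and 6 Leydig genes 0 were called, with 0 in each at an unadjusted p under 0.05. The background for these unadjusted counts was 2350 of all 9067 genes tested. Leydig levels spread within groups, at -1.78, -2.34 and -0.10 in t12 and -2.90, -0.53 and -0.10 in Ttf. Star, the steroidogenic cholesterol transfer protein, read 4.99, 3.77 and 7.90 in t12 and 3.34, 7.97 and 7.79 in Ttf. The part of cell composition in the germ cell differences was not tested.

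**Figure D4:**
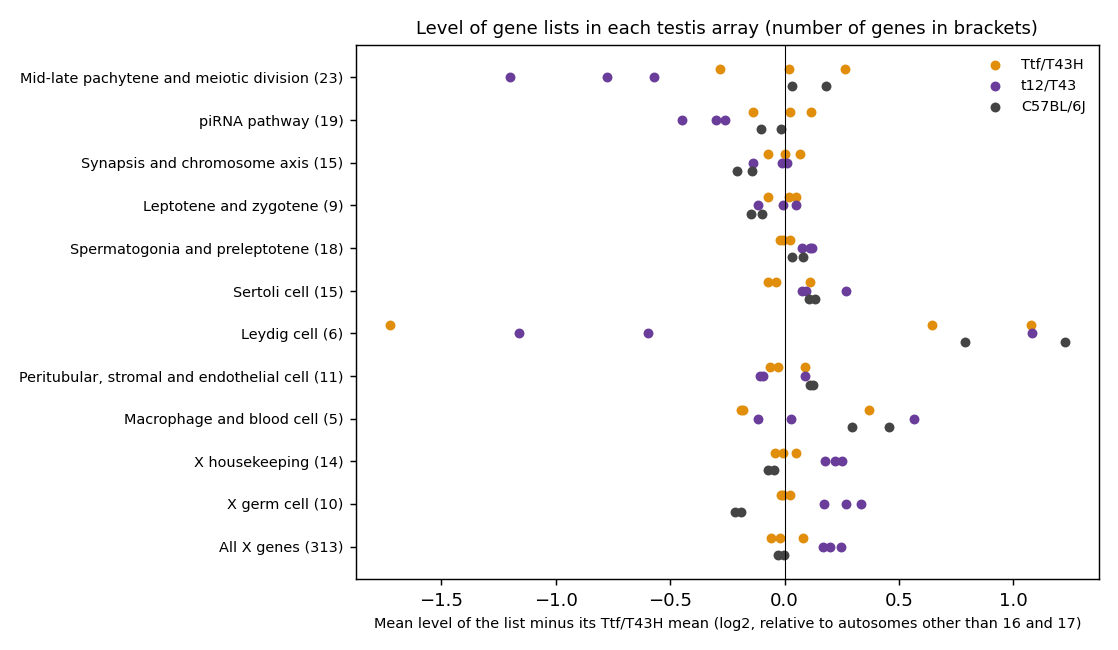
Mean level of each gene list on each testis array, relative to autosomes other than 16 and 17 and set to 0 at the Ttf/T43H mean (horizontal axis, log2), with the number of tested genes in brackets and 1 point per array. The t12/T43 points lie left of the Ttf/T43H points for the mid-late pachytene and piRNA lists and right of them for the X lists, and overlap them for Leydig genes.

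The same genes were set against the normal step from pre-mid- to mid-late-pachytene cells in sorted C57BL/10J spermatocytes, arrays that play no part in the carrier comparison. This comparison was chosen after values were seen and is a description. Of the 360 genes lower in t12 testes, 306 (85%) were higher in the later C57BL/10J cells, 230 of them at least 2-fold, with a median step of 1.67. All 104 that fell at least 2-fold were higher in the later cells. Over all tested genes the share was 47.3% and the median step -0.09.

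The 100 genes higher in t12 had a median step of -1.20, made up of -4.96 for the 19 on the X, 0.10 for the 17 on proximal 17 and -0.48 for the 61 on autosomes other than 16 and 17. For 314 of the 360 lower genes (87.2%) and 79 of the 100 higher genes, the C57BL/6J mean lay nearer Ttf than t12, against 61.1% of all genes tested. These C57BL/6J arrays also entered the fit through its spread.

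**Figure D5:**
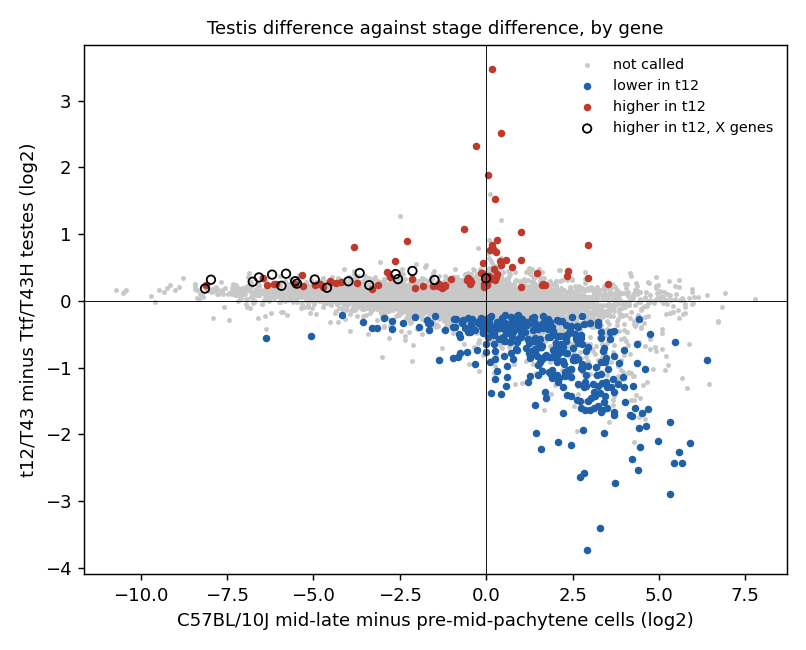
Difference between t12/T43 and Ttf/T43H testes (vertical axis, log2) against the difference between mid-late and pre-mid-pachytene cells of C57BL/10J (horizontal axis, log2), 1 point per tested gene. Blue points, lower in t12, lie mostly right of 0 (306 of 360), and ringed X genes lie left of 0 or close to it.

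The X chromosome read higher in t12 testes, as a small and wide shift. Of 313 tested X genes 19 were higher (6.07%) and 0 lower, against 1.1% higher and 3.97% lower over all genes tested. On the X 302 genes (96.5%) differed by more than 0, with a median of 0.17. The share above 0 was 55.2% on autosomes other than 16 and 17. The X level relative to autosomes other than 16 and 17 was 0.35, 0.38 and 0.43 on the t12 arrays (0.39 ± 0.04, SD, n = 3) and 0.12, 0.17 and 0.26 on the Ttf arrays (0.18 ± 0.07, SD, n = 3). C57BL/6J arrays read 0.16 and 0.18. The carrier groups did not overlap, and C57BL/6J lay within the Ttf range.

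Single X genes differed by little. Stag2, a cohesin subunit, read 10.05, 10.08 and 10.12 in t12, 9.72, 9.77 and 9.80 in Ttf, and 9.62 and 9.64 in C57BL/6J, a difference of 0.32 (SE 0.04; limma adjusted p 0.0291). Nxt2, an mRNA export cofactor, was higher by 0.39 (SE 0.06), Yipf6, a Golgi membrane protein, by 0.35 (SE 0.05) and Cul4b, a ubiquitin ligase scaffold, by 0.29 (SE 0.05). Called members were 2 of 14 X housekeeping genes (14.3%) and 2 of 10 X germ cell genes (20%), against 6.07% of all tested X genes. Every tested member of both lists differed by more than 0, as did 96.5% of all tested X genes. The 19 calls became 0 without Ttf replicate 1 or 2, t12 replicate 2 or 3, or either C57BL/6J array, 44 without Ttf replicate 3 and 9 without t12 replicate 1. The X level difference was 0.20 and stayed between 0.17 and 0.24 in those fits.

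The 19 called X genes had a median step of -4.96 between the C57BL/10J stages, so they were far lower in the later cells. Whether this step differed from that of the other tested X genes was not tested. Spermatogonial and Sertoli medians, at 0.12 each, were near the X median of 0.17, and their part in the X shift was not tested. On the Y, limma called 0 of 4 tested genes, all 4 with an unadjusted p under 0.05. Over all 9067 genes tested, 2350 had such a p. Zfy2, a zinc finger gene of the Y short arm, was at least 8.70 on the t12 arrays, read 8.24, 8.38 and 8.41 in Ttf, and read 7.42 and 6.97 in C57BL/6J, a difference of 0.48 (SE 0.13; limma adjusted p 0.074). For Zfy2, all 3 t12 arrays stood above all 3 Ttf arrays, and those above C57BL/6J.

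Of the genes off chromosome 17 and the X, Tmem117, a transmembrane protein gene of chromosome 15, had the largest rise. It read 5.52, 5.14 and 5.62 in t12, 4.05, 3.96 and 3.67 in Ttf, and 3.99 and 4.09 in C57BL/6J, so t12 stood above both other groups. The difference was 1.53 (SE 0.15; limma adjusted p 0.00976), and the call was lost only without Ttf replicate 2. Only 1 Ttf array reached log2 4, so Tmem117 met the filter only with its t12 arrays, and the exact size is uncertain. Mblac1 read 3.65, 3.52 and 3.50 in t12, 4.15, 4.21 and 4.24 in Ttf, and 4.04 and 4.02 in C57BL/6J, a difference of -0.64 (SE 0.05; limma adjusted p 0.00546). All its values are close to the filter, and its t12 arrays were below it.

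The difference between carriers was then compared with the same difference in sorted pre-mid-pachytene cells. A limma fit of all 18 arrays called 78 of 10623 genes (0.734%), and 812 had an unadjusted p under 0.05. In 71 of the 78 the t12 minus Ttf difference was more positive in testes, but 66 of these were genes lower in t12 sorted cells with a smaller difference in testes: over the 71, the median difference was -0.00 in testes and -2.96 in cells. In the other 7 the difference was larger in cells too, with t12 higher. The remaining 5 of the 71 were Psmb9, Tap1, Tap2, Tmem117 and Sox8, which are the 5 called in testes as well.

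These 5 genes were below log2 4 on all 6 carrier arrays of sorted cells. Psmb9 read 2.59, 2.64 and 2.74 in t12 cells and 2.49, 2.47 and 2.30 in Ttf cells, and Tap1 ran from 1.63 to 1.66 over both. Tap2 reached at most 3.08, Tmem117 2.49 and Sox8 2.55. At such levels a carrier difference in sorted cells could not be measured, so for these genes the call restates the difference in testes.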

How the data were processed

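RNA of 18 samples was measured on Affymetrix mouse arrays, of which 8 were testes of 15-day-old males. Expression is in the log2 values the authors deposited; the submitters' processing notes name GCRMA, a method for background correction, normalization and probe summary. Its version and which arrays it normalized together are not given in the sources used here. Of 16539 probe sets, 15780 had 1 gene symbol, 0 had several and 759 had none (64 of them array controls) and were left out. RefSeq's GRCm38.p6 table placed 15749 genes and gave promoter windows.

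Groups and replicate numbers came from sample titles. The deposited values were fitted without further normalization by limma 3.58.1 in R 4.3.3, with 1 mean per group over the 8 testis arrays and eBayes. Genes at log2 4 or more on at least 2 of the 6 carrier arrays were tested (Odf4 just passed, with a second highest value of 4.00), two-sided, with Benjamini-Hochberg adjustment. A second fit of 18 arrays tested whether the carriers' difference differed between testes and sorted cells. Arrays have no read depth, so their number limits the precision. In simulated data of 9067 genes, 200 of them changed, the testis test recovered 95% of 2-fold and 98% of 4-fold changes, with 14 false calls. The simulated errors were independent between arrays. Real arrays numbered 1 and 3 deviated together between the carrier groups, with correlations of 0.495 and 0.682. The simulated rates therefore cannot be carried over to these data.

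By the naming rule, the text names from the 12 largest called rises and the 12 largest called falls with arrays that did not overlap, called list members, up to 3 members per list or chromosome region with the smallest p, and called neighbours on chromosome 17. Dhx16, Mblac1, Ezr, Adam2, Hspa2, Piwil1, H2-D1, Tapbp, B2m, Psmb8, Sod2, Igf2r, Sycp3 and Dmc1 fall outside the rule and were named after their values were seen. The counts of genes nearer C57BL/6J and the promoter windows shown were likewise chosen after values were seen. Of 361 listed genes, 299 were on the array. The comparison, members and lists were chosen with earlier results of these data known. Alternatives were no filter, a filter at log2 6, quantile normalization, median centring, the 6 carrier arrays alone, an intensity trend, a replicate block, leaving out each array, array weights and a filter on both groups.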

Additional observations from a re-analysis of the deposited data

Results flagged for a closer look

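For 5 genes called in testes, the difference between t12 and Ttf carriers passed limma's test of a difference between whole testes and sorted pre-mid-pachytene cells (n = 3 arrays per carrier group and tissue). All 5 were below log2 4 on all 6 carrier arrays of sorted cells, at 1.63 to 3.08, so a carrier difference could not be measured there, and the genes were picked for their call in testes. The values therefore restate the difference in testes. Psmb9 differed by 3.48 in testes and 0.24 in cells, a gap of 3.24 (SE 0.27; limma adjusted p 9.8e-05). Tap1 differed by 2.32 and 0.02, a gap of 2.31 (SE 0.29; limma adjusted p 0.00238). Tap2 differed by 1.89 and 0.54, a gap of 1.36 (SE 0.27; limma adjusted p 0.0336). Tmem117 differed by 1.53 and 0.03, a gap of 1.51 (SE 0.19; limma adjusted p 0.0025). Sox8 differed by 0.84 and 0.09, a gap of 0.75 (SE 0.15; limma adjusted p 0.0336).

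Leaving out each of the 12 carrier arrays in turn kept the limma calls of Psmb9 (adjusted p at most 0.00065), Tap1 (at most 0.0115) and Tmem117 (at most 0.0145). The call of Tap2 held only without t12 sorted replicate 2 (limma adjusted p 0.0022) or t12 sorted replicate 3 (0.00361), and reached 0.115 without t12 testis replicate 2. The call of Sox8 held only without Ttf sorted replicate 2 (limma adjusted p 0.0346), t12 sorted replicate 2 (0.00358) or Ttf testis replicate 3 (0.044), and reached 0.124 without Ttf testis replicate 2. With array weights per group, the limma adjusted p was 0.127 for Psmb9, 0.239 for Tap1, 0.166 for Tap2, 0.473 for Tmem117 and 0.782 for Sox8.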

How the results depend on the processing

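No gene named by the rule and called changed sign under any of 17 alternatives, of which array weights and the filter on both groups were chosen after seeing the data. Since the t12 and Ttf arrays of every called gene did not overlap, only quantile normalization and median centring could have changed a sign. The unchanged signs under the other settings add no support. The 9 genes were picked because every leave-one-out fit called them, so those settings add no support. The fit of the 6 carrier arrays alone repeats the fits without a C57BL/6J array. The 9 were also called in every other setting that tested them. Over all settings Psmb9 lay between 3.32 and 3.74 and 1700010I14Rik between -3.92 and -3.53. Tap1, Tap2 and Mblac1 were not tested at log2 6 or with the filter on both groups.

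Total calls were 149 with no filter (64 higher, 85 lower, 10 in lists, 8 on X), 36 with the 6 carrier arrays (14, 22, 7 and 0, with 19 on proximal 17) and 1939 with array weights (804, 1135, 92 and 111, with 86 on proximal 17). Median centring gave 183 higher. Leaving out arrays gave 10 to 909 calls in all, 5 to 223 higher, 5 to 686 lower, 4 to 52 in lists, 8 to 42 on proximal 17 and 0 to 44 on X. The X level difference was 0.13 with no filter and 0.17 to 0.24 without single arrays. The cause of these changes was not tested.

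Deviations of same-numbered t12 and Ttf arrays had correlations of 0.495, 0.0459 and 0.682 for numbers 1, 2 and 3. What arrays of the same number shared is not stated, and the fit behind the 460 calls did not pair them. Any deviation they shared stays in the spread of that fit. With the replicate block, calls were 1708 (668 higher, 1040 lower, 87 in lists, 77 on proximal 17, 100 on X) and included all 460, with 18 mid-late pachytene and 10 piRNA genes lower. The tissue comparison gave 78 calls, 18 with the replicate block, and 46 to 429 without single arrays, the latter without t12 sorted replicate 2. The macrophage and blood median turned from 0.12 to -0.006267 without t12 testis replicate 3 and was up to 0.37 without other arrays.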
